A study of Danio rerio with 15 samples.

Results

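The gene expression described here is that of venous thrombus tissue taken 1 h after a laser injury of the vein, set against venous tissue of zebrafish larvae that were not injured. The comparison was chosen by the labels alone and holds 6 of the 15 libraries of the study, 3 at 1 h and 3 controls. All larvae carried the same transgenes, Tg(flk1:eGFP; gata1:dsRed), in which the flk1 promoter marks endothelium green and the gata1 promoter marks erythroid cells red. The laser damaged endothelium close behind the anal pore. Trunks without head and tail gave 20 frozen sections, each 20 µm thick, from which a laser-capture microscope took the tissue for sequencing of total RNA. The submitters give 1 h as the initial stage of the clot. Neither the age of the larvae nor the number of animals behind a library, nor any pooling, is stated in the labels. Libraries may share animals, so p-values refer to the spread among libraries within groups, part of which may be technical. Unless stated otherwise, that spread was estimated from all 15 libraries. The labels name no sham procedure, so the injury cannot be told apart from the handling or from the time of day.

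Injury of a vein wall exposes the blood to tissue that starts coagulation, and thrombocytes, the nucleated platelets of fish, gather at the site with trapped erythrocytes. Cells around a wound answer within minutes by transcribing immediate early genes, whose promoters need no new protein to fire. Signals of cytokine receptors through JAK kinases and STAT factors follow, and with them feedback inhibitors such as the SOCS proteins.

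Values are FPKM, read levels scaled to transcript length and library size, and gene symbols are those of a table of Ensembl gene IDs, in which a symbol in capitals is that of the human orthologue. IDs with 1 symbol were summed. Where 3 values are given they stand in the order of libraries A, B and C of the control, and of libraries A, column B and C of the 1 h group. Column B is the name of a column whose letter no 1 h sample title carries, so it was placed in the 1 h group and in no particular sample. Differences are on the log2(FPKM + 1) scale, 1 h minus control, which understates the change of genes with low levels, and their tests are limma's, adjusted over all 13051 genes tested.

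The libraries held 12515673 to 15651535 recovered reads, and the 1 h libraries had fewer genes above 0 (10953, 12156 and 11224) than the controls (13572, 13310 and 13383). Of the genes tested, 27.7%, 22.8% and 25.4% were listed at 0 in the 1 h libraries and 14.8%, 14.8% and 15.0% in the controls. Pearson correlations of log2 levels were 0.81 to 0.87 among the controls, 0.72 to 0.76 among the 1 h libraries and 0.73 to 0.80 between the groups, each over the 13051 genes. The median difference of all genes tested was -0.12, and it was 0.03 after quantile normalization.

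Checked against markers, the captured tissue had high levels of muscle and erythroid RNA and low levels of endothelial RNA. Such sums depend on how strongly each marker is expressed and do not give shares of tissue. Skeletal muscle markers summed to 173100 to 222500 FPKM in the controls and 100600 to 162900 at 1 h. Endothelial markers summed to 47.8 to 65.5 and to 23.5 to 41.4 FPKM. Of the 21 endothelial markers tested 17 had negative differences and none passed. kdrl, the gene whose promoter is called flk1, had 1.30, 1.33 and 7.20 FPKM in the controls and 0.0276, 0.135 and 3.13 at 1 h, and vwf was listed at 0 in all 6 libraries. Erythroid markers summed to 2766 to 5007 FPKM in the controls and 4756 to 8887 at 1 h, and none of 18 passed. Thrombocyte markers summed to 11.9 to 21.4 and to 30.2 to 39.9 FPKM, higher in every 1 h library than in any control. Among them gp9, part of the receptor for von Willebrand factor, had 4.09, 4.73 and 0 FPKM in the controls and 16.5, 7.18 and 9.60 at 1 h, and missed the threshold (difference 1.90, limma adjusted p = 0.587). In bulk tissue fewer cells of a type and less RNA per cell cannot be told apart.

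Other tissues differed between libraries of the same group. Relative to the control mean, neural markers stood at 0.21, 2.40 and -0.02 in the 1 h libraries, and their summed level in column B was 476 FPKM against 44.5 to 91.0 in the other 5 libraries. Notochord and cartilage markers stood at -2.97, -1.60 and -0.15, with 14 of 15 differences negative, among them those of MATN3 (difference -3.48) and epyc (difference -3.06). Epidermal markers were low in 1 h library C (-1.61), and neutrophil markers were high in 1 h library A by this mean of log2 values (1.32). In sum the neutrophil markers were not higher there. They had 87.7, 30.2 and 26.3 FPKM at 1 h and 87.7, 77.4 and 49.8 in the controls. Macrophage markers stood at -0.43, -1.15 and -0.27, with control C at -0.38. They summed to 71.65, 25.63 and 85.63 FPKM at 1 h and to 84.42, 78.6 and 55.93 in the controls. Pigment cell markers stood at 0.79, 0.93 and -0.09. Gut, liver and kidney markers were low in all libraries, at 0.147 to 87.6 FPKM in sum. Fin fold and mesenchyme markers summed to 750.6 to 1043 FPKM. Of 16 tested, 4 were higher and 3 lower at an unadjusted p under 0.05, as were 3.20% and 6.14% of all genes. Mural and smooth muscle markers summed to 31.3 to 411 FPKM with both groups spanning most of that range. No gene of the 13 marker lists passed the threshold. The part of this mixture in the differences below was not tested.

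**Figure D1:**
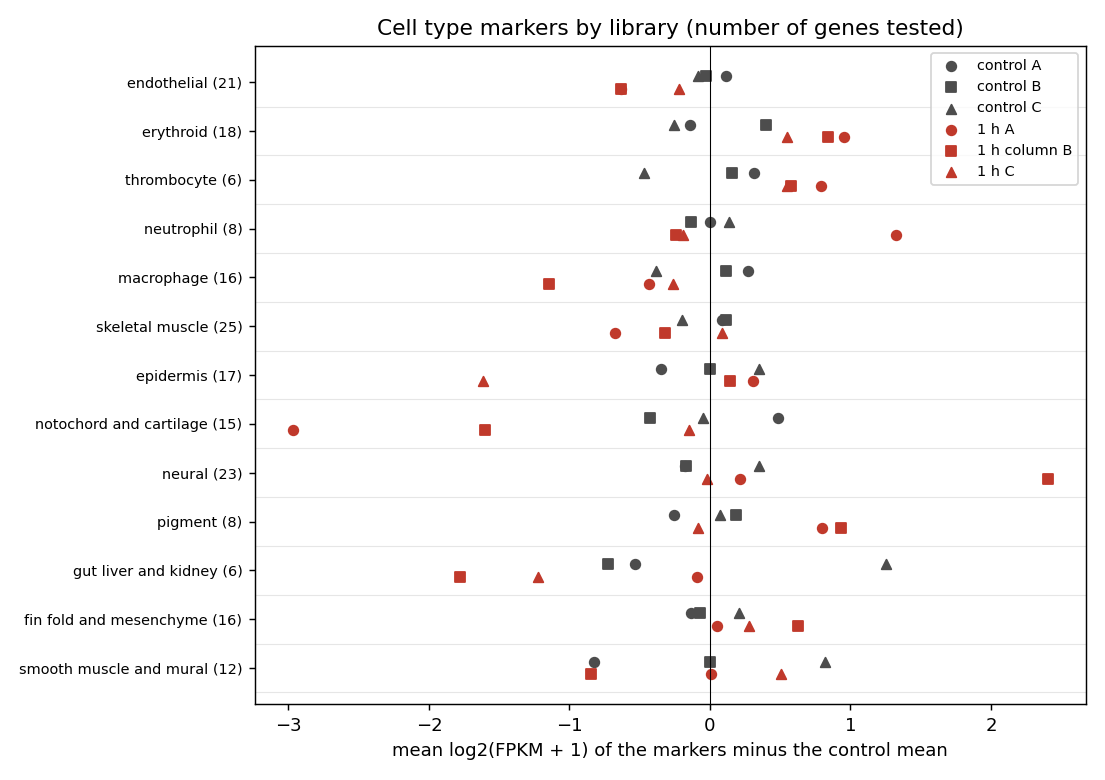
Mean log2(FPKM + 1) of the tested markers of each cell type minus the mean of the 3 controls, 1 point per library, with the number of genes tested in brackets. Column B stands at 2.40 for neural markers, and the 1 h libraries spread from -2.97 to -0.15 for notochord and cartilage markers.

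At 1 h 16 genes rose and 13 fell, together 0.222% of the genes tested (limma adjusted p under 0.05). The genes that rose make up 0.123% and those that fell 0.0996%. Among the genes that rose were 4 AP-1 subunits, the cytokine feedback inhibitor gene SOCS3, the haem oxygenase gene HMOX1, the clock repressor BHLHE40 and the muscle genes tcap and nmrk2. Among those that fell were the cohesin subunit rad21a, the stress protein gene nupr1a, the CDC42 effector CDC42EP3 and a pair of SOCS box genes. Genes of the mitochondrion stood on both sides. MT-ND2, MT-ND4 and PRELID3B rose, and TAMM41, tmem223, MTG1 and SLC25A48 fell. The 6 libraries separated without overlap in 622 genes with higher 1 h levels (4.77%) and in 1106 with lower ones (8.47%). With so few libraries a group, some genes separate by chance alone, and how many was not estimated. At an unadjusted p under 0.05, 417 genes were higher (3.20%) and 801 lower (6.14%), and after quantile normalization, which moves the median to 0.03, these were 631 and 675.

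**Figure D2:**
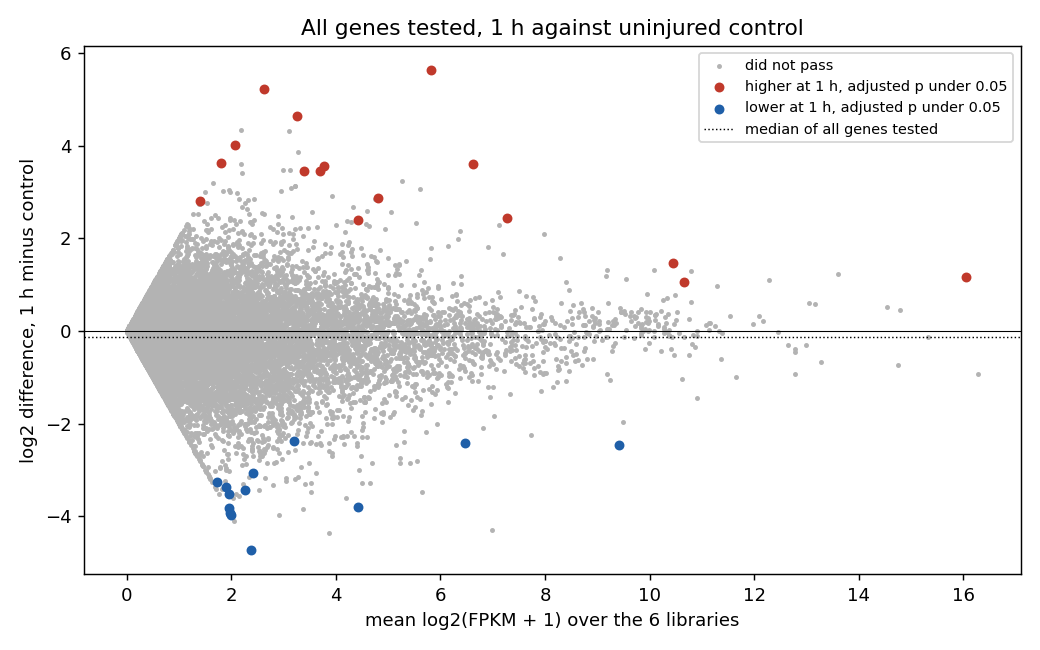
Difference in log2(FPKM + 1), 1 h minus control, against the mean level over the 6 libraries for each of 13051 genes. The 16 genes that rose and the 13 that fell are coloured, and the dotted line is the median of all genes at -0.12.

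Of the genes that rose, BHLHE40 was nearly unread in the controls. This basic helix-loop-helix repressor acts in the circadian clock and in the response to low oxygen. It had 0, 0 and 1 recovered reads in the controls and 1382, 2234 and 799 at 1 h, or 39.4, 56.6 and 22.0 FPKM (difference 5.22 ± 0.63 SE, limma adjusted p = 0.00146). It held at an adjusted p of at most 0.0157 whichever of the 6 libraries was left out.

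The AP-1 subunits dimerize with JUN proteins and bind enhancers of early response genes. FOS had 0, 3.69 and 0.481 FPKM in the controls and 19.8, 272 and 18 at 1 h (difference 4.64 ± 0.84 SE, limma adjusted p = 0.0270). FOSL2 had 1.41, 1.67 and 4.05 FPKM in the controls against 29.6, 46.2 and 28.2 at 1 h (difference 3.45 ± 0.53 SE, adjusted p = 0.0100). FOSB was listed at 0 in all 3 controls and had 1.81, 13.9 and 7.04 FPKM at 1 h (adjusted p = 0.0447), and FOSL1 had 0, 9 and 0 reads in the controls and 353, 3255 and 425 at 1 h (adjusted p = 0.0413). No control library reached any 1 h library in these genes, and column B was the highest of the 3 in each. That is also the library with the high neural markers. Without it FOS and FOSL2 passed (adjusted p = 0.0441 and 0.0321), and FOSL1 and FOSB missed the threshold (0.0900 and 0.0839).

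SOCS3, which binds cytokine receptors and blocks JAK kinases, is the sum of 2 gene IDs here. It had 7.89, 14.4 and 7.02 FPKM in the controls and 68.3, 98.6 and 62.5 at 1 h (difference 2.88 ± 0.44 SE, limma adjusted p = 0.0100). HMOX1 opens the haem ring and yields biliverdin, iron and carbon monoxide, and it had 1.17, 3.60 and 5.26 FPKM in the controls against 61.7, 51.6 and 30.6 at 1 h (difference 3.57 ± 0.59 SE, adjusted p = 0.0138). In both genes the lowest 1 h library was far above the highest control. The Polycomb gene cbx7a, a reader of methylated histone H3, had the closest 1 h values, with 3.94, 3.06 and 1.95 FPKM in the controls and 38.3, 42.1 and 45.4 at 1 h (difference 3.46 ± 0.54 SE, adjusted p = 0.0100).

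Both muscle genes that rose were present in every control. tcap encodes telethonin, which caps titin at the Z-disc, and had 1.99, 16.0 and 8.94 FPKM in the controls and 180.5, 825 and 416 at 1 h (difference 5.64 ± 0.79 SE, limma adjusted p = 0.00521). nmrk2 encodes a muscle kinase that makes NAD from nicotinamide riboside, and had 13.3, 56.6 and 26.7 FPKM in the controls against 215, 658 and 287 at 1 h (difference 3.61 ± 0.57 SE, adjusted p = 0.0110). Within each group, library A was the lowest and library or column B the highest in both genes. The muscle markers as a whole were not higher, for in the same 1 h libraries they stood at -0.68, -0.32 and 0.08 relative to the control mean. Of 25 tested, 7 were lower at an unadjusted p under 0.05, as were 6.14% of all genes. Among the 7 was actc1b, the most abundant named gene of the tissue, with 117900, 119900 and 93300 FPKM in the controls and 37830, 72630 and 69970 at 1 h (limma adjusted p = 0.189).

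PRELID3B, a member of the PRELI family of mitochondrial lipid transfer proteins, had 42.3, 89.5 and 74.6 FPKM in the controls and 303, 664 and 231 at 1 h (difference 2.44 ± 0.38 SE, limma adjusted p = 0.0100). cplx4c, of the complexins that bind SNARE complexes at synapses, had 6.64, 9.07 and 9.53 FPKM in the controls against 56.7, 49.7 and 39.4 at 1 h (difference 2.40 ± 0.40 SE, adjusted p = 0.0148). Column B was not the highest library in this gene, and the part of neural tissue in its rise was not tested. A gene known by its clone name, si:ch211-132b12.7, was listed at 0 in all 3 controls and had 611, 453 and 159 reads at 1 h, or 20.3, 13.4 and 5.09 FPKM (adjusted p = 0.0138).

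The remaining 3 genes that rose were abundant. MT-ND2 and MT-ND4 are subunits of respiratory complex I encoded in the mitochondrial genome. MT-ND2 had 708, 960.2 and 869 FPKM in the controls and 2987, 1673 and 2458 at 1 h (difference 1.46 ± 0.27 SE, limma adjusted p = 0.0401). MT-ND4 had 980.2, 1190 and 1183 FPKM in the controls against 2702, 1893 and 2447 at 1 h (difference 1.06 ± 0.21 SE, adjusted p = 0.0447). A gene with no name in the tables used here, ENSDARG00000080337, had 38640, 39670 and 61740 FPKM in the controls against 137500, 78990 and 98010 at 1 h (difference 1.16 ± 0.23 SE, adjusted p = 0.0427). In all 3 the libraries kept 1 order at 1 h, A above C above column B. That is also the order of the share of tested genes at 0. ENSDARG00000080337 alone took 5.62%, 5.68% and 9.17% of all FPKM in the controls and 18.8%, 11.8% and 13.7% at 1 h. FPKM are shares of a library, and the part of this gain in the other differences was not tested.

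**Figure D3:**
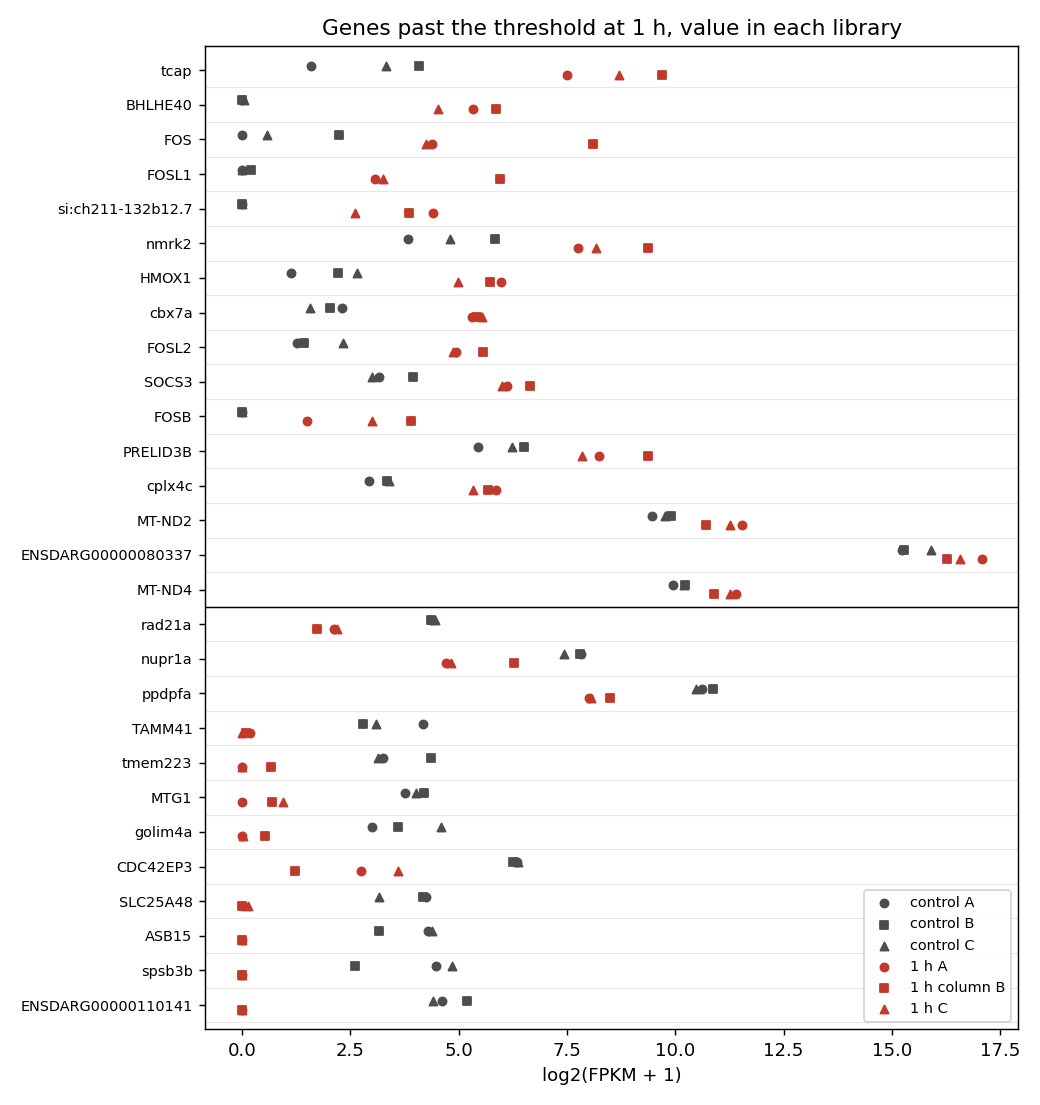
log2(FPKM + 1) of 28 of the 29 genes past the threshold in each of the 6 libraries, controls in grey and 1 h in red, with 16 genes that rose above the line and 12 that fell below it. No gene shown has overlapping groups, and the 1 h points of FOS and FOSL1 spread the most.

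Among the 13 genes that fell, 4 had at least 1 recovered read in every 1 h library. ppdpfa, named for its role in pancreatic progenitors of the zebrafish, was the most abundant, with 1561, 1864 and 1423 FPKM in the controls and 256, 358 and 266 at 1 h (difference -2.47 ± 0.30 SE, limma adjusted p = 0.00146). nupr1a belongs to the family of nuclear protein 1, a chromatin-binding protein induced by cell stress, and it had 225, 222 and 173 FPKM in the controls against 25.2, 76.0 and 27.4 at 1 h (difference -2.42 ± 0.42 SE, adjusted p = 0.0212). CDC42EP3 binds the GTPase CDC42 and shapes actin and septin filaments, and had 80.8, 74.7 and 81.7 FPKM in the controls against 5.67, 1.31 and 11.1 at 1 h (difference -3.81 ± 0.50 SE, adjusted p = 0.00300). rad21a encodes the subunit that closes the cohesin ring around DNA. Its controls were 19.4, 19.6 and 20.8 FPKM and its 1 h libraries 3.32, 2.33 and 3.56 (difference -2.38 ± 0.46 SE, adjusted p = 0.0413). The controls of rad21a held 776, 806 and 734 reads and the 1 h libraries 109, 86 and 121.

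The other genes that fell and are described here were at or near 0 at 1 h. golim4a, a Golgi membrane protein gene counted over 2 IDs, had 6.96, 11.0 and 23.0 FPKM in the controls and 0, 0.450 and 0.0203 at 1 h (difference -3.53 ± 0.62 SE, limma adjusted p = 0.0212). Its paralogue golim4b had 5.33, 3.80 and 2.39 FPKM in the controls against 0, 0 and 0.124 at 1 h and missed the threshold (adjusted p = 0.234). ASB15 and spsb3b encode SOCS box proteins, which hand substrates to ubiquitin ligases. ASB15 had 493, 217 and 469 reads over 2 IDs in the controls and none at 1 h (adjusted p = 0.0234). spsb3b had 285, 71 and 330 reads in the controls and none at 1 h (adjusted p = 0.0413). The gene with the lowest difference, ENSDARG00000110141, has no name in the tables used here, and had 65, 102 and 50 reads in the controls and none at 1 h (adjusted p = 0.0429).

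The last 4 genes that fell act in mitochondria, a grouping made after their values were seen and not tested. TAMM41 makes CDP-diacylglycerol for the synthesis of cardiolipin, and had 17.0, 5.94 and 7.50 FPKM in the controls and 0.141, 0.0629 and 0 at 1 h (difference -3.26 ± 0.64 SE, limma adjusted p = 0.0429). tmem223, known in human cells as a factor for cytochrome oxidase, had 8.57, 19.4 and 7.83 FPKM in the controls against 0, 0.576 and 0 at 1 h (difference -3.37 ± 0.55 SE, adjusted p = 0.0138). MTG1, a GTPase of the mitochondrial ribosome, had 12.5, 17.2 and 15.2 FPKM in the controls against 0, 0.610 and 0.937 at 1 h (difference -3.44 ± 0.66 SE, adjusted p = 0.0418). SLC25A48, an inner membrane carrier, had 18, 17.2 and 7.91 FPKM in the controls against 0, 0 and 0.0994 at 1 h (difference -3.82 ± 0.67 SE, adjusted p = 0.0212). The highest 1 h value among the 4 was below 1 FPKM and the lowest control value above 5. Mitochondrial ribosomal proteins, the family MTG1 serves, had 1 of 69 members lower at an unadjusted p under 0.05, none higher and none past the threshold, with a median difference of -0.21.

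Genes at 0 were common on the 1 h side. Of the genes tested, 236 had no read in any 1 h library and at least 1 in every control, and 22 the other way round. The 236 genes had a median of their mean control level of 1.84 FPKM, or 44.2 reads, and 30 of them had a mean of at least 5 FPKM. ASB15, spsb3b and ENSDARG00000110141 are among those. Recovered reads of the 1 h libraries were 12515673, 14056176 and 12972947, and those of the controls 15226964, 15651535 and 13440164. Depth was thus below every control in 1 h libraries A and C, while column B was deeper than control C. Of the genes tested, 22.8% were at 0 in column B and 15.0% in control C. The part of depth in the genes at 0 was not tested.

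None of the 29 calls held with only the 6 libraries compared, and 5 held with the library letter as a block. Column B was a block by itself there, so the 1 h side of that fit rests on libraries A and C. In fits that kept the later times, how far the calls held was unequal. tcap, BHLHE40, ppdpfa and CDC42EP3 passed in all 6 fits that left out 1 library. cbx7a and PRELID3B passed in 5 of the 6, and FOS, nmrk2, FOSL2 and SOCS3 in 4. HMOX1 and tmem223 passed in 3, and cplx4c, SLC25A48, ENSDARG00000080337 and si:ch211-132b12.7 in 2. FOSL1, FOSB, MT-ND2, MT-ND4, nupr1a, golim4a, ASB15 and spsb3b passed in only 1. rad21a, TAMM41, MTG1 and ENSDARG00000110141 passed in none of them. With a pseudocount of 0.1, tcap and ENSDARG00000110141 missed the threshold (limma adjusted p = 0.0588 and 0.0525). Without control A 24 of the 29 were lost. The count of genes past the threshold was 7, 10 and 10 without control A, B or C, 12 without 1 h library A, 32 without 1 h library C and 53 without column B.

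On the recovered reads, limma voom called 93 genes (0.713%), 33 higher (0.253%) and 60 lower (0.460%), and 21 of the 29 were among them. SOCS3, FOSL2, nmrk2, cplx4c, nupr1a and CDC42EP3 were called in both ways. FOS, HMOX1, cbx7a, rad21a, MTG1, golim4a and ENSDARG00000080337 were among those not called by voom (adjusted p = 0.254, 0.186, 0.101, 0.133, 0.0717, 0.119 and 0.109). Of the 60 lower genes 40 were at 0 in all 1 h libraries, and of the 33 higher genes 8 were at 0 in all controls.

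The 10 genes with separate groups and no clone name that lay nearest to the threshold on the higher side were 5 nuclear and 5 mitochondrially encoded ones. MIDN, which carries early nuclear proteins to the proteasome, had 7.20, 12.4 and 10.3 FPKM in the controls and 49.1, 60.0 and 48.3 at 1 h (difference 2.31 ± 0.49 SE, limma adjusted p = 0.0628, voom adjusted p = 0.0297). KLF6, a zinc finger factor of injured endothelium and epithelium, had 7.74, 4.83 and 11.5 FPKM in the controls against 40.0, 38.7 and 32.4 at 1 h (difference 2.14 ± 0.45 SE, adjusted p = 0.0628, voom 0.0233). crema, of the cyclic AMP response factors, had 0, 1.64 and 5.67 FPKM in the controls against 36.7, 56.3 and 10.2 at 1 h (adjusted p = 0.0660). By the rule that named them, the lowest 1 h library was above the highest control in each. COQ10B, a coenzyme Q binding protein, had 63.3, 55.7 and 71.2 FPKM in the controls against 192, 434 and 138 at 1 h (adjusted p = 0.0687, voom 0.0208). soul5, of the SOUL family of haem-binding proteins, had 9.59, 7.28 and 9.89 FPKM in the controls against 43.3, 157 and 29.5 at 1 h (adjusted p = 0.0732). The mitochondrially encoded MT-ND6, MT-ND1, MT-ATP6, MT-ND5 and mt-atp8 had differences of 1.32, 1.29, 1.11, 1.13 and 1.32, each with groups that did not overlap and adjusted p-values of 0.0567 to 0.0628. Further from the threshold, MT-CO2, MT-CO3, MT-CO1 and MT-CYB of the same genome had smaller positive differences of 0.45, 0.53, 0.58 and 0.60 (limma adjusted p = 0.180, 0.156, 0.242 and 0.275).

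Voom alone called further higher genes that the FPKM fit did not. THBS1, thrombospondin, an adhesive protein of platelet granules and wounded tissue, had 7.59, 4.74 and 17.5 FPKM in the controls and 43.9, 31.9 and 33.0 at 1 h over 2 IDs (difference 1.93, limma adjusted p = 0.126, voom 0.0279). PCK1, the entry enzyme of gluconeogenesis, was listed at 0 in the controls and had 13.6, 5.90 and 0.869 FPKM at 1 h (voom adjusted p = 0.0332). hsp70.1, an inducible chaperone, was at 0 in the controls and had 4.36, 2.02 and 1.92 FPKM (voom 0.0233). The ciliary transcription factor rfx3 (1.35, 1.74 and 1.14 FPKM) and the plasma membrane calcium pump atp2b3a (2.14, 1.63 and 1.20 FPKM) were likewise at 0 in all controls. ILKAP, a phosphatase, had 0.0740, 0 and 0 FPKM in the controls against 1.40, 2.12 and 15.5 at 1 h, with 1 h library C far above the other libraries.

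Nearest to the threshold on the lower side, metrnlb, a secreted meteorin-like protein gene, had 5.32, 5.01 and 5.76 FPKM in the controls and 0 in all 1 h libraries (limma adjusted p = 0.0533, voom 0.0150). nr1d4b, a REV-ERB repressor of the clock, had 1.72, 7.28 and 11.1 FPKM and then 0 (adjusted p = 0.0596, voom 0.00355). PPAT, which commits ribose phosphate to purine synthesis, had 13.3, 5.91 and 6.96 FPKM in the controls against 0, 0 and 0.431 at 1 h (adjusted p = 0.0608). Groups without overlap were a condition for naming the genes nearest to the threshold, and control A of nr1d4b was low at 1.72 FPKM. CTHRC1, a secreted collagen repeat protein of injured arteries, had 33.8, 27.7 and 25.8 FPKM in the controls against 0, 3.27 and 0.611 at 1 h over 2 IDs (adjusted p = 0.0660). SNAPC5, a subunit of the complex that starts small nuclear RNA genes, had 16.9, 19.5 and 39.8 FPKM in the controls against 0.577, 7.28 and 0.557 at 1 h (adjusted p = 0.0660). YEATS4, a reader of acylated histones, had 8.87, 17.0 and 17.2 FPKM in the controls against 0.150, 0 and 1.88 at 1 h (adjusted p = 0.0629). The tetraspanin tspan37, the ubiquitin ligase subunit MAEA and pdcd2l had differences of -3.61, -2.67 and -3.57, with adjusted p-values of 0.0596 to 0.0660. crispld1b had 7.20, 2.45 and 13.0 FPKM in the controls and was listed at 0 in all 1 h libraries (adjusted p = 0.0628).

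Voom also called lower genes that were at 0 in every 1 h library. The scramblase gene XKR8 had 12.2, 18.6 and 10.3 FPKM in the controls (voom adjusted p = 0.00641), the interferon regulatory factor IRF5 had 5.28, 3.30 and 6.22 (0.00305) and the mRNA decapping enzyme DCP2 had 6.65, 3.12 and 6.85 (0.00355). CITED2, a restraint on hypoxia factors, had 20.6, 5.47 and 4.47 FPKM (0.0191) and the F-box gene FBXL2 had 5.90, 6.36 and 9.70 (0.00641). In FPKM these 5 missed the threshold, with limma adjusted p-values of 0.0687 to 0.140. The remaining lower genes named by rule, map1lc3cl of the autophagosome coat, OLFML3 and serpinh2, had mean control levels of 20.9, 7.31 and 1.95 FPKM.

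The rest of the genes were read through 56 families and pathways. Of the 56, 5 held a gene past the threshold, 1 gene each: nmrk2, cbx7a, nupr1a, CDC42EP3 and golim4a. The other 24 called genes were in none. Medians of the lists ran from -0.58 for lysosomal proteases and the proton pump to 0.50 for 5 apolipoproteins, against -0.12 for all genes, and 32 lists lay above that and 24 below. Leaving out column B moved the apolipoprotein median to -0.43, and the sign of the median changed in 9 lists without column B and in 12 after quantile normalization. As a background for the counts below, 9.33% of all genes had an unadjusted p under 0.05. Groups did not overlap in 13.2% of all genes. The members named below had the smallest p-values of their list, a choice that favours separate groups.

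**Figure D4:**
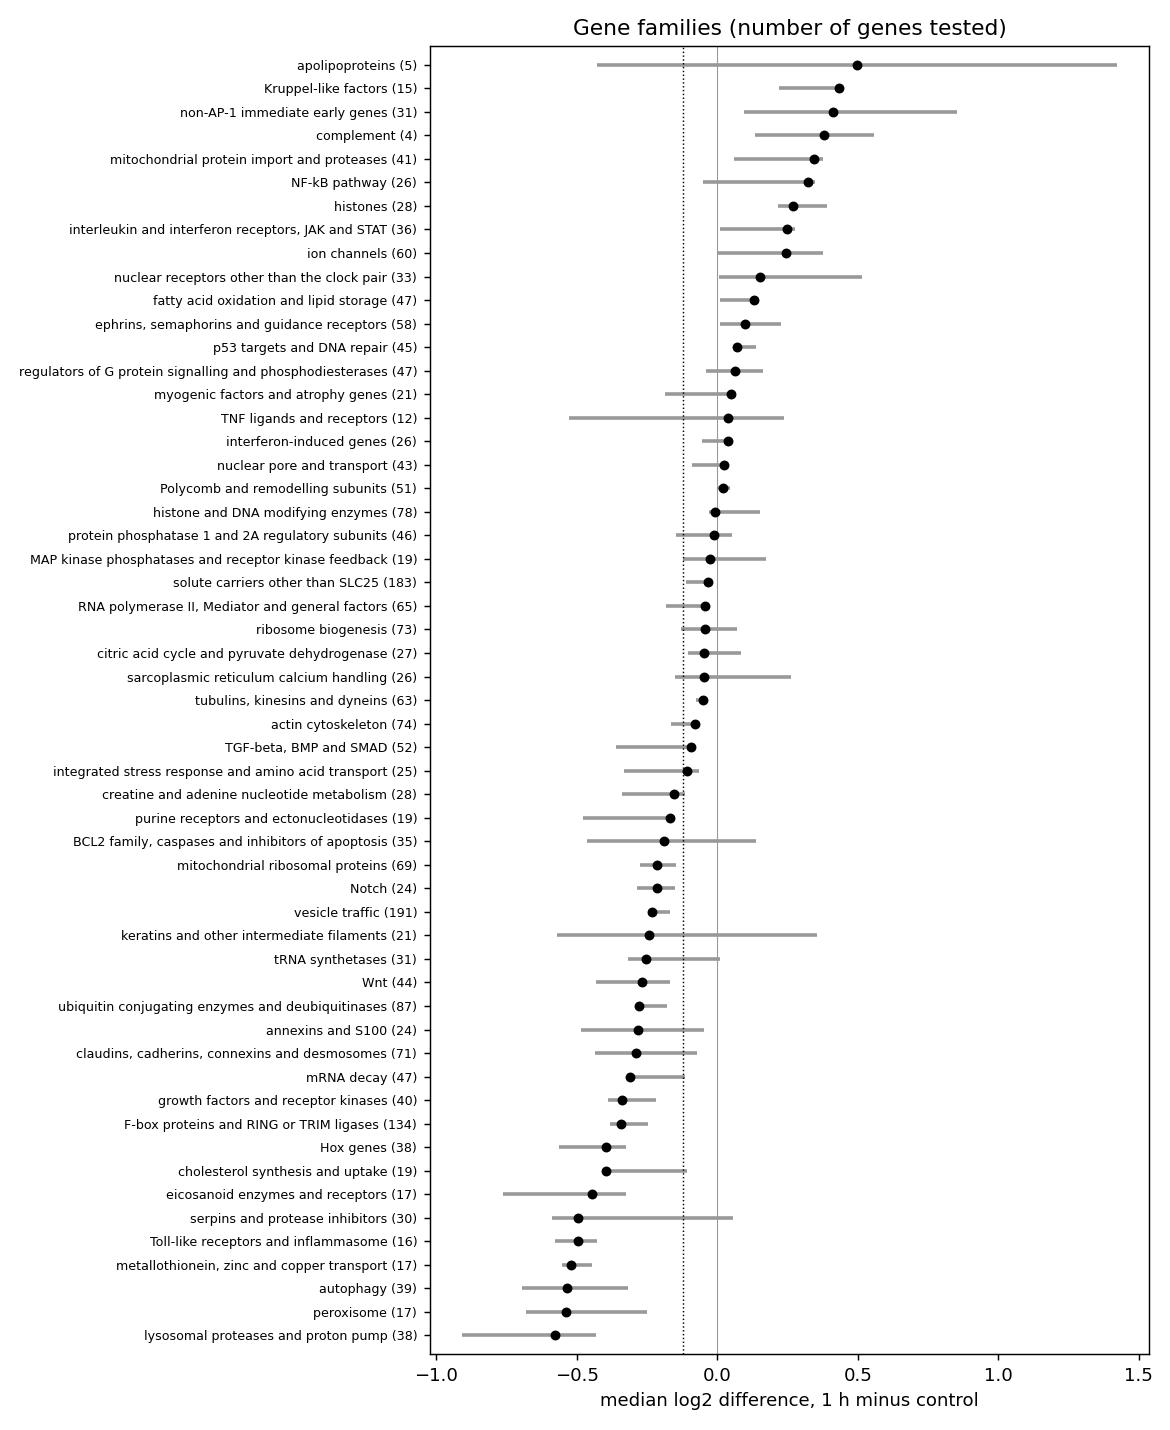
Median difference in log2(FPKM + 1), 1 h minus control, of each of 55 of the 56 gene families, with the number of genes tested in brackets. Grey bars span the medians obtained when 1 of the 3 1 h libraries is left out, the dotted line is the median of all genes (-0.12), and the families at the ends run from -0.58 to 0.50.

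Of the early genes most differences were positive, and none passed beyond those named above. Among 31 immediate early genes outside AP-1, 26 had positive differences, as did 5641 of all 13051, 6 were higher at an unadjusted p under 0.05, and none was lower. Their median was 0.41, and 0.09 without column B. BTG2, an antiproliferative early gene, had 4.03, 19.1 and 4.07 FPKM in the controls and 32.1, 198 and 19.0 at 1 h, where library C overlapped the controls. CCN1, a matrix protein of wounds, had 1.27, 0 and 2.40 FPKM in the controls against 4.00, 31.2 and 5.58 at 1 h, and the orphan receptor NR4A3 had 0.802, 0 and 0 FPKM in the controls against 1.06, 20.4 and 4.68 at 1 h. Column B was the highest library in each of these 3 genes. PIM1, a kinase induced by STAT factors, had 15.7, 15.6 and 13.6 FPKM in the controls against 43.3, 49.3 and 23.2 at 1 h, and EGR3 had 0, 0.333 and 0 FPKM in the controls against 2.70, 11.4 and 0 at 1 h. Adjusted p-values of these 5 were 0.228 to 0.472 (limma).

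Krüppel-like factors had a median of 0.43 over 15 genes, and next to KLF6 stood klf5l, with 0, 0.162 and 5.98 FPKM in the controls and 16.5, 15.5 and 9.40 at 1 h (limma adjusted p = 0.304). In klf2b, which fluid shear induces in endothelium, the controls had 1.30, 0.586 and 1.22 FPKM and the 1 h libraries 6.33, 2.87 and 1.52 (adjusted p = 0.685). Of 19 MAP kinase phosphatases and receptor kinase inhibitors, 1 was higher and 3 lower at an unadjusted p under 0.05. ERRFI1, an inhibitor of the EGF receptor, had 4.32, 1.22 and 0 FPKM in the controls against 6.36, 9.83 and 6.41 at 1 h, while DUSP10 had 6.46, 3.14 and 0.504 FPKM in the controls and 0 at 1 h.

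Of the receptors and transducers of cytokines, the arm through gp130 had the smallest p-values. STAT3, the transcription factor of that arm and an inducer of SOCS3, had 2.32, 1.84 and 0.292 FPKM in the controls and 7.61, 13.0 and 12.7 at 1 h (difference 2.36 ± 0.64 SE, limma adjusted p = 0.180). il6st, which encodes gp130, had 2.97, 1.53 and 3.08 FPKM in the controls against 10.3, 7.92 and 13.8 at 1 h (difference 1.73 ± 0.53 SE, adjusted p = 0.278), and the kinase gene jak2a 0.411, 2.68 and 1.1 FPKM in the controls against 2.76, 9.20 and 5.43 at 1 h (difference 1.50, adjusted p = 0.435). In all 3 every 1 h library was above every control, which the choice by smallest p favours, and none passed. Of the 36 genes of the list 16.7% had separate groups, against 13.2% of all genes. il10rb had 42.9, 28.7 and 51.8 FPKM in the controls against 11.4, 29.1 and 18.9 at 1 h (adjusted p = 0.471). Over 36 genes of the list, 3 were higher and 1 lower at an unadjusted p under 0.05, or 11.1%, near the background.

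NF-kB genes gave 1 higher and 1 lower of 26 at that level. nfkbiaa, the inhibitor that NF-kB itself induces, had 6.25, 4.61 and 10.2 FPKM in the controls and 18.5, 55.3 and 12.6 at 1 h, and TAB1 had 8.35, 15.4 and 14.5 FPKM in the controls against 0, 11.7 and 2.82 at 1 h. The receptor gene tnfrsf1a had 1.58, 1.40 and 1.24 FPKM in the controls against 9.10, 5.41 and 3.88 at 1 h (difference 1.50, limma adjusted p = 0.463), and MYD88, the adaptor of Toll-like receptors, 0, 1.94 and 0 FPKM in the controls against 12.5, 8.95 and 2.49 at 1 h (difference 2.44, adjusted p = 0.522). These 3 higher genes had groups that did not overlap, which the choice by smallest p favours. Groups did not overlap in 7.69% of NF-kB genes, 25.0% of tumour necrosis factor genes and 12.5% of Toll-like receptor genes (13.2% of all genes). In the tumour necrosis factor list 1 gene had separate groups on the higher side and 2 on the lower. Of 16 Toll-like receptor and inflammasome genes 11 had negative differences, with a median of -0.50. In the interferon list IRF5 and irf1a were at 0 in all 1 h libraries, irf1a from 4.79, 0.710 and 2.48 FPKM. At an unadjusted p under 0.05 these 2 of 26 genes were lower and none was higher, or 7.69%, against 9.33% of all genes. Of the differences of the list 13 were positive and 11 negative, and the median was 0.04. Of the 4 complement genes tested none differed at that level, and of 17 eicosanoid genes 1 did, the prostaglandin receptor PTGER3 (difference -1.98). NT5E, the ectonucleotidase that makes adenosine, had 0.874, 0 and 3.96 FPKM in the controls and 8.43, 4.53 and 5.42 at 1 h, and no other of 19 purine receptor or nucleotidase genes had an unadjusted p under 0.05. Among annexins and S100 proteins s100w had 6.48, 7.54 and 2.46 FPKM in the controls against 28.7, 25.3 and 9.73 at 1 h and ANXA11 99.0, 69.9 and 61.2 FPKM in the controls against 37.1, 34.5 and 39.9 at 1 h.

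The integrated stress response, in which ATF4 raises amino acid supply, held 7 lower and 1 higher of 25 genes at an unadjusted p under 0.05, or 32.0%. nupr1a passed. DDIT3, the factor CHOP, had 36.7, 22.1 and 29.4 FPKM in the controls and 0.460, 28.2 and 3.05 at 1 h (difference -2.42, limma adjusted p = 0.360), and SLC3A2, a chain of amino acid transporters, 43.8, 145 and 88.3 FPKM in the controls against 2.95, 99.5 and 15.7 at 1 h (difference -2.15, adjusted p = 0.447). In both genes column B was at the control level and the other 1 h libraries below it. ASNS, asparagine synthetase, and slc3a2a were at or near 0 at 1 h, from mean controls of 1.38 and 1.56 FPKM. The median of the list was -0.11, about that of all genes.

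Autophagy genes had 7 lower and 2 higher of 39 at an unadjusted p under 0.05, or 23.1%, and a median of -0.53. gabarapb, whose product coats autophagosomes, had 241, 176 and 189 FPKM in the controls and 55.2, 122 and 60.1 at 1 h (difference -1.42, limma adjusted p = 0.121). ATG16L1, which sets where that coat is attached, had 1.08, 2.74 and 0.173 FPKM in the controls against 9.85, 7.46 and 7.06 at 1 h (difference 2.11, adjusted p = 0.210). Lysosomal proteases and proton pump subunits had the lowest median of the 56 lists, with 31 of 38 differences negative and 4 lower at an unadjusted p under 0.05. The pump subunit atp6v1e1b had 26.5, 35.9 and 41.0 FPKM in the controls against 5.95, 13.5 and 12.3 at 1 h (difference -1.67, adjusted p = 0.358). The protease gene ctsl.1 had 7.91, 10.3 and 2929 FPKM in the controls, so that control C stood alone, and 1.63, 1.84 and 3.52 at 1 h. These medians stayed below that of all genes without any 1 h library and after quantile normalization (-0.34 and -0.49). Macrophages are rich in lysosomes, and their markers stood below the control mean in all 3 of the 1 h libraries. Control C stood there too (-0.38), below 1 h library C (-0.27), and 1 h library C had the highest sum of these markers. The part of macrophages in this was not tested.

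No gene of cell death or DNA repair passed. Of 45 p53 and repair genes 3 were higher and 1 lower at an unadjusted p under 0.05, with GADD45B, a stress sensor, at 19.4, 25.8 and 16.9 FPKM in the controls and 44.8, 138 and 29.3 at 1 h (difference 1.44, limma adjusted p = 0.382). PARP3 had 0, 0.156 and 0.212 FPKM in the controls against 1.92, 2.98 and 10.6 at 1 h (difference 2.20, adjusted p = 0.325). Of 35 apoptosis genes 1 was higher and 1 lower. cycsb, a cytochrome c gene, had 950.4, 1467 and 659 FPKM in the controls against 1530, 1529 and 1598 at 1 h.

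In chromatin, histone genes had 6 higher and 2 lower of 28 at an unadjusted p under 0.05, or 28.6%. h2ax2, of the variant that marks DNA breaks when phosphorylated, had 0, 1.52 and 0 FPKM in the controls and 20.8, 4.38 and 10.9 at 1 h (difference 3.04, limma adjusted p = 0.126). h3f3d, a replication-independent histone H3.3, had 18.7, 17.9 and 16.3 FPKM in the controls against 28.4, 45.7 and 46.7 at 1 h (difference 1.11, adjusted p = 0.415), and h2ax had 10.4, 18.8 and 12.8 FPKM in the controls against 55.9, 17.6 and 58.6 at 1 h. Histone genes are near-identical copies that can share reads, so the split between copies is uncertain. Next to cbx7a, PCGF5, another Polycomb repressive complex 1 subunit, had 0.0320, 0.0155 and 0.706 FPKM in the controls and 2.99, 2.53 and 3.56 at 1 h (difference 1.72, adjusted p = 0.318), and no other of 51 Polycomb and remodelling genes was higher at that level. EED, a subunit of Polycomb complex 2, had 10.4, 23.9 and 18 FPKM in the controls against 1.64, 8.20 and 2.57 at 1 h (difference -1.99, adjusted p = 0.392).

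Genes of mitochondrial import and folding had none past the threshold, 27 of 41 differences positive, 4 higher at an unadjusted p under 0.05 and none lower. HSPD1, the matrix chaperonin, had 11.9, 26.9 and 16.1 FPKM in the controls and 69.0, 40.2 and 56.5 at 1 h (difference 1.58, limma adjusted p = 0.250). GRPEL1, the exchange factor of mitochondrial Hsp70 in import, had 4.37, 0.931 and 2.83 FPKM in the controls against 13.6, 5.99 and 11.1 at 1 h (difference 1.65, adjusted p = 0.363), the fusion GTPase gene MFN2 0.183, 0.666 and 1.23 FPKM in the controls against 2.78, 6.87 and 3.01 at 1 h (difference 1.59, adjusted p = 0.380) and the import receptor gene tomm20a 1.70, 4.26 and 3.81 FPKM in the controls against 14.6, 10.6 and 8.16 at 1 h (difference 1.53, adjusted p = 0.410). All 4 had separate groups. The share of the list with an unadjusted p under 0.05 was 9.76%, close to that of all genes, and its median went from 0.34 to 0.06 without column B.

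No gene of the citric acid cycle, of fat oxidation or of creatine metabolism passed, except nmrk2 of the last. UCP2, an uncoupling protein, had 45.9, 115 and 100.3 FPKM in the controls and 136, 657 and 196 at 1 h (difference 1.67, limma adjusted p = 0.325), and PDK2, which shuts pyruvate dehydrogenase, 23.7, 34.3 and 76.8 FPKM in the controls against 66.2, 744 and 81.7 at 1 h (difference 1.98, adjusted p = 0.473). Column B was highest in both. The lipid carrier gene fabp4a had 108, 124 and 73.6 FPKM in the controls against 2.37, 37.7 and 19.7 at 1 h (difference -2.85, adjusted p = 0.387) and IDH3A of the citric acid cycle 53.8, 74.7 and 41.1 FPKM in the controls against 20.8, 40.5 and 11.5 at 1 h (difference -1.31, adjusted p = 0.325). The muscle creatine kinase genes ckma and ckmb had differences of -0.53 and -0.39, and AK1, adenylate kinase, -0.46.

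In muscle, factors of myogenesis and wasting had 5 higher and 2 lower of 21 genes at an unadjusted p under 0.05, the largest share of the lists at 33.3%. FOXO1, which drives wasting genes when insulin signalling is low, had 4.35, 2.15 and 3.98 FPKM in the controls and 11.8, 11.8 and 11.0 at 1 h (difference 1.52, limma adjusted p = 0.285). foxo3b had 18.7, 22.0 and 25.6 FPKM in the controls against 43.1, 90.5 and 40.2 at 1 h (difference 1.26, adjusted p = 0.398), foxo3a 0.384, 0.181 and 3.05 FPKM in the controls against 5.57, 4.33 and 4.62 at 1 h (difference 1.63, adjusted p = 0.471). All 3 had separate groups. Their target trim63a, the ubiquitin ligase MuRF1, was lower, at 2.90, 1.98 and 2.40 FPKM in the controls against 0.158, 0.749 and 0.152 at 1 h (difference -1.36, adjusted p = 0.439). The related ligase gene trim55a had 47.3, 43.5 and 32.3 FPKM in the controls against 8.67, 9.30 and 3.57 at 1 h (difference -2.43, adjusted p = 0.287). In calcium handling MCU, the pore of mitochondrial calcium uptake, had 43.7, 38.7 and 65.9 FPKM in the controls against 9.12, 25.0 and 1.92 at 1 h (difference -2.42, adjusted p = 0.176), the parvalbumin gene pvalb4 1551, 1305 and 1454 FPKM in the controls against 2355, 1854 and 2494 at 1 h (difference 0.63, adjusted p = 0.390) and STIM1, the sensor of store calcium, 2.37, 7.66 and 4.11 FPKM in the controls against 13.7, 10.0 and 10.0 at 1 h (difference 1.19, adjusted p = 0.475).

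The lists of ubiquitin enzymes and ligases and of vesicle traffic held 1 gene past the threshold, golim4a. The SOCS box genes ASB15 and spsb3b, which also passed, were in none of the lists. Of 134 F-box, RING and TRIM genes 14 were lower and 4 higher at an unadjusted p under 0.05. The nearest to the threshold was fbxo2, an F-box protein that reads sugars on proteins, with 213, 275 and 218 FPKM in the controls and 70.8, 82.7 and 25.8 at 1 h (difference -2.11 ± 0.46 SE, limma adjusted p = 0.0691). Of 87 conjugating enzymes and deubiquitinases 6 were lower and 1 higher, with UBE2G2 at 48.3, 38.1 and 29.7 FPKM in the controls against 20.6, 2.32 and 6.23 at 1 h (difference -2.28, adjusted p = 0.227). In vesicle traffic the counts were 13 and 3 of 191. COPE of the COPI coat had 49.0, 50.6 and 49.2 FPKM in the controls against 10.4, 38.0 and 12.4 at 1 h (difference -1.48, adjusted p = 0.353), and the SNARE gene stx2a was higher, 0, 0 and 1.36 FPKM in the controls against 6.10, 6.43 and 1.93 at 1 h (difference 2.01, adjusted p = 0.180). The shares were 13.4%, 8.05% and 8.38%, around the background.

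RNA decay had 4 lower and none higher of 47 at an unadjusted p under 0.05. Besides DCP2 these include EXOSC4, a ring subunit of the exosome, at 21.8, 16.1 and 26.6 FPKM in the controls and 0, 9.55 and 0 at 1 h (difference -3.33, limma adjusted p = 0.102), and EXOSC5 at 2.98, 7.97 and 4.64 FPKM in the controls against 0.227, 0.403 and 2.95 at 1 h. Of 65 polymerase II and Mediator genes 7 were lower and 3 higher, MED30 with 103, 52.7 and 44.4 FPKM in the controls against 23.7, 41.0 and 5.43 at 1 h (difference -1.75, adjusted p = 0.311) and TAF2 with 1.01, 0.319 and 0.574 FPKM in the controls against 15.2, 2.49 and 3.24 at 1 h (difference 1.95, adjusted p = 0.395). In ribosome assembly 2 of 73 genes were higher and 1 lower at that level, or 4.11%, and the median was -0.04 with 40 differences negative. The groups did not overlap in 8 of the 73, all of them higher at 1 h (4.77% of all genes were). Among the 8 FBL, fibrillarin, had 41.4, 43.6 and 39.5 FPKM in the controls against 71.1, 68.9 and 68.4 at 1 h (difference 0.73, adjusted p = 0.518), with very close values within each group. The mitochondrial tRNA synthetase genes RARS2 (difference 2.23) and LARS2 (difference 1.38) had positive differences, and the cytosolic complex genes AIMP1 (difference -0.90) and AIMP2 (difference -0.89) negative ones, all with separate groups and adjusted p-values of 0.252 to 0.475.

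The cytoskeleton had 7 actin genes lower and 1 higher of 74 at an unadjusted p under 0.05. CAPZB, which caps filaments in the Z-disc and elsewhere, had 948, 951 and 744 FPKM in the controls and 324, 496 and 462 at 1 h (difference -1.06, limma adjusted p = 0.117). ARPC4 of the Arp2/3 complex had 39.1, 36.9 and 43.7 FPKM in the controls against 13.7, 12.2 and 16.6 at 1 h (difference -1.44, adjusted p = 0.390) and its activator WASF2 10.6, 12.8 and 12.4 FPKM in the controls against 5.68, 1.61 and 1.69 at 1 h (difference -1.84, adjusted p = 0.352). The groups did not overlap in any of the 3 genes. STMN1, which destabilizes microtubules, had 12.4, 15.0 and 2.91 FPKM in the controls against 35.7, 33.1 and 20.4 at 1 h (difference 1.67, adjusted p = 0.360). It is also among the neural markers, and the part of neural tissue in it was not tested.

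At the cell surface and in the matrix, SERPINE2, which inhibits thrombin, had 12.4, 26.8 and 16.2 FPKM in the controls against 5.46, 8.79 and 3.16 at 1 h (difference -1.54, limma adjusted p = 0.392), and serpinf1 32.6, 32.1 and 54.3 FPKM in the controls against 6.85, 13.9 and 20.7 at 1 h (difference -1.53, adjusted p = 0.439). Of 30 protease inhibitors 4 were lower and 1 higher at an unadjusted p under 0.05, and the median of -0.50 became 0.06 without column B. The vessel connexin gene gja4 had 0, 9.44 and 4.77 FPKM in the controls and was listed at 0 in all 1 h libraries. The connexin genes gjc4b and gja13.2 had differences of -1.77 and 2.06, and none of the 3 passed. SEMA4B, a semaphorin, had 3.58, 3.27 and 3.34 FPKM in the controls against 20.4, 15.1 and 17.7 at 1 h (difference 2.08, adjusted p = 0.387), with narrow groups.

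No gene of the Notch, Wnt, TGF-beta or growth factor lists passed. In Notch, the glycosyltransferase LFNG had 12.7, 16.3 and 12.0 FPKM in the controls and 0, 2.81 and 5.39 at 1 h (difference -2.33, limma adjusted p = 0.170), and no other of 24 had an unadjusted p under 0.05. In Wnt, the ligand gene WNT11 had 13.8, 5.59 and 4.86 FPKM in the controls against 0.147, 0.0328 and 3.48 at 1 h (difference -2.25, adjusted p = 0.275) and the decoy gene SFRP5 10.7, 23.2 and 15.6 FPKM in the controls against 0.606, 3.60 and 7.53 at 1 h (difference -2.07, adjusted p = 0.287). In the TGF-beta and BMP list the inhibitor SMAD6 had 12.6, 7.74 and 7.25 FPKM in the controls against 3.27, 1.18 and 0.584 at 1 h (difference -2.02, adjusted p = 0.325), TGIF1 5.59, 6.00 and 18.2 FPKM in the controls against 21.6, 21.0 and 19.4 at 1 h (difference 1.17, adjusted p = 0.473), and SMAD3 0.0319, 0.0103 and 0.398 FPKM in the controls against 3.20, 0.558 and 6.04 at 1 h (difference 1.66, adjusted p = 0.511). IGFBP1, which binds insulin-like growth factors, had 4.67, 10.3 and 10.7 FPKM in the controls against 14.0, 139.7 and 16.7 at 1 h (difference 1.88, adjusted p = 0.414), and column B was again far above the rest. Of 38 Hox genes 25 were negative and 1 had an unadjusted p under 0.05.

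Transporters and channels held no gene past the threshold. Of 183 solute carriers 7.10% had an unadjusted p under 0.05, SLC43A2 with the smallest (16.6, 7.68 and 20.8 FPKM in the controls against 2.93, 2.04 and 0 at 1 h, limma adjusted p = 0.110). Of 60 channel genes 6.67% did, kcnip4b with the smallest (2.44, 2.02 and 1.34 FPKM in the controls against 0, 0.314 and 0 at 1 h, adjusted p = 0.126). In zinc transport SLC39A7, a zinc exporter of the endoplasmic reticulum, had 15.9, 18.3 and 9.60 FPKM in the controls against 2.66, 2.62 and 3.81 at 1 h (difference -1.92, adjusted p = 0.315). Cyclic nucleotide enzymes and regulators included PDE7A at 1.36, 3.62 and 5.16 FPKM in the controls against 17.2, 14.9 and 12.1 at 1 h (difference 1.94, adjusted p = 0.278). The other lists held no gene past the threshold. Counts of genes higher and lower at an unadjusted p under 0.05 were 1 and 0 of 12 for tumour necrosis factor ligands and receptors, 1 and 0 of 16 for Toll-like receptors and the inflammasome, 1 and 1 of 40 for growth factors and receptor kinases, 2 and 1 of 33 for nuclear receptors. They were 1 and 4 of 63 for tubulins, kinesins and dyneins, 0 and 1 of 21 for keratins and other intermediate filaments, 0 and 2 of 78 for histone and DNA modifying enzymes, 0 and 1 of 19 for cholesterol synthesis. They were 1 and 3 of 43 for nuclear pores, 1 and 1 of 46 for phosphatase regulatory subunits and 0 and 1 of 17 for peroxisomes. No share in these lists was above 9.33% of genes, that of the background.

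At 12 h each of the 29 genes was closer to the control mean than at 1 h. The genes of both directions were picked for their difference at 1 h. Smaller differences at other times, and the most extreme mean at 1 h, are thus partly built in. The later values share the controls and the estimate of spread with the 1 h comparison and are given side by side with no test. Of the 16 genes that rose, 9 had their highest group mean at 1 h and 7 at 3 h. nmrk2 went from a difference of 3.61 at 1 h to 1.63 at 3 h, 0.30 at 6 h and 0.45 at 12 h. FOSB, at 0 in the controls, went from a mean of 7.59 FPKM at 1 h to 0.702 at 3 h and was listed at 0 in all libraries of 6 and 12 h. tcap went from 5.64 to 7.63 and 4.55 before -0.83, and cbx7a from 3.46 to 5.43, 3.35 and 0.93. At 12 h none of the 16 was more than 1 above the control.

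Of the 13 genes that fell, 12 had their lowest group mean at 1 h, ASB15 tied with 3 h, and ppdpfa had it at 3 h (-3.44). rad21a and tmem223 were near the control mean by 3 h, at 0.23 and 0.11. rad21a then had a mean of 23.7 FPKM at 3 h and 28.9 at 12 h. golim4a, spsb3b and nupr1a were still low at 3 h, at -3.16, -3.26 and -2.15. By 12 h 1 of the 13, ASB15, was more than 1 below the control (-1.96).

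**Figure D5:**
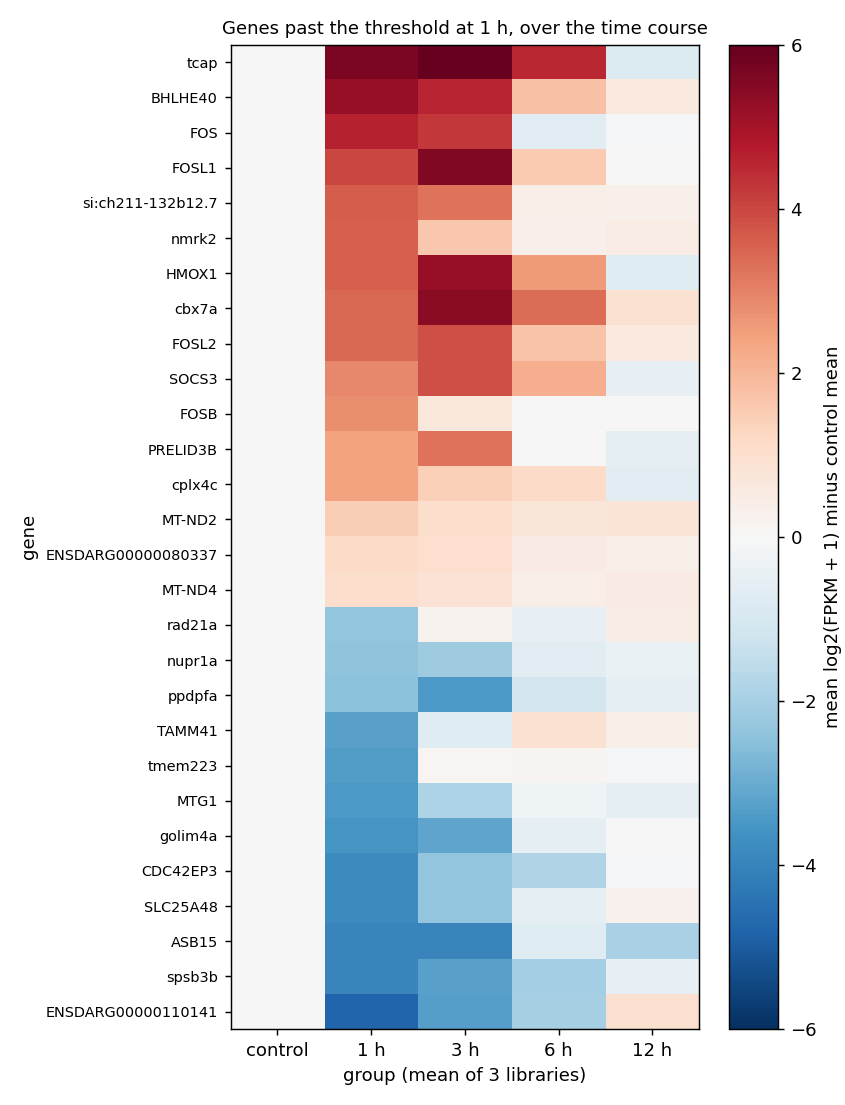
Mean log2(FPKM + 1) of 28 of the 29 genes in the control and at 1, 3, 6 and 12 h, minus the control mean, over 3 libraries a group. Red is above and blue below the control. Most colours are strongest at 1 or 3 h and pale by 12 h.

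The threshold lay between FOSB and MT-ND4 on the inside, both with an adjusted p of 0.0447, and metrnlb, MT-ND6 and nr1d4b outside, with 0.0533, 0.0567 and 0.0596 (limma). With only the 6 libraries compared, no gene passed by limma, and 1022 had an unadjusted p under 0.05.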

How the data were processed

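Total RNA of 15 laser-captured libraries was sequenced, 3 for each of 5 groups, and 6 were compared here. Per the submitters' processing notes, reads were aligned with HISAT to GRCz11 with the annotation of Ensembl release 106, and the authors deposited 1 FPKM per gene ID, made with StringTie and edgeR. The deposited table holds 32520 IDs, of which 29201 matched a symbol. Its 3 columns that name another time were not used. FPKM of IDs with 1 symbol were summed, and genes of at least 1 FPKM in at least 3 libraries were tested with limma 3.58.1 in R 4.3.3 (trended variance, log2(FPKM + 1), all 15 libraries in 1 fit, Benjamini-Hochberg threshold 0.05). For each of the 20690 IDs read in 2 or more libraries, a search found read counts of which the values were whole multiples of 1 read within 0.001. The smallest such counts were taken. For IDs read in few libraries a match is likely from the search alone, so their counts are uncertain. Alternatives were limma voom on these recovered counts and other settings of filter, scaling, pseudocount, threshold, libraries and block. The recovered totals were 12486844 to 15651535 reads. The fit was also run on simulated counts, with the same relative spread for all genes and changes planted only in well-read genes. That simulation held no mixture of tissues, so it checks the code and not the calls made here.

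Genes named are those past the threshold, the 10 nearest to it in each direction with separate groups and no clone name, the 5 smallest p-values of each of 56 lists, the 10 largest differences in each direction among calls of voom alone, and members of 13 marker lists as levels. Lists were matched by symbol, and 13 symbol patterns that are no member of a family were taken out once the gene names were known. The comparison and the lists were chosen with earlier results of these data known. Some genes and 1 list are not reported here.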

Additional observations from a re-analysis of the deposited data

How the results depend on the processing

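Of the settings tried, some moved the count of 29 genes past limma's threshold by more than 1.5 times. It was 16 with no filter (10 higher, 6 lower), 93 with voom on recovered reads (33 and 60), 1144 under the submitters' threshold (397 and 747) and 0 with only the 6 libraries compared, where 1022 genes had an unadjusted p under 0.05. Leaving out 1 library gave 7 to 53 genes, 7 without control A and 53 without column B. With the replicate block it was 9, of which 5 were among the 29. Column B was a block by itself in that fit and so dropped out of the 1 h difference. The groups share only letters, and deviations of same-lettered libraries had correlations of -0.09 (A) and -0.05 (C). Other settings gave 31 to 40 genes, with 27 to 29 of the 29 among them. Of 328 named genes 3 changed sign under at least 1 alternative, KLF11, apoeb and c7a, none of them past the threshold (limma adjusted p = 0.757, 0.925 and 0.963). Over these genes and alternatives 181 values lost and 84 gained the threshold. The cause of these shifts was not tested. The median of all genes was -0.30 with a pseudocount of 0.1 and -0.39 with voom. The 3 libraries a group and the 22.8% to 27.7% of tested genes at 0 at 1 h limit the precision for genes with few reads.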

Other observations

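Of the 22 genes listed at 0 in all controls and above 0 in all 1 h libraries, the highest mean was that of si:dkey-104n9.1, at 22.0 FPKM, and 6 had a mean of at least 5 FPKM. Their median was 2.70 FPKM, or 85.5 reads, against 44.2 reads for the 236 genes with no read at 1 h. Of these the highest control mean was that of ENSDARG00000110141, at 26.4 FPKM.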
